A study of Mus musculus with 15 samples.

Results

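Erythroid genes were followed in sorted mouse LSK cells. These marrow cells lack lineage markers, carry Sca-1 and c-Kit, and include hematopoietic stem cells and early progenitors. The 9 genes were taken by symbol from the 45232 gene IDs of the count table. They were the adult globin genes Hba-a1, Hba-a2, Hbb-bs and Hbb-bt, the heme synthesis gene Alas2, the transcription factor gene Klf1, the carbonic anhydrase genes Car1 and Car2, and the membrane protein gene Ermap. All 9 were found, and all 9 had enough counts to be among the 17834 genes tested. In GRCm38 coordinates, the alpha globin genes lie on the plus strand (chr11:32283511-32284465 and chr11:32296489-32297298) and the beta globin genes on the minus strand (chr7:103826534-103828096 and chr7:103812524-103813996). Car1 (chr3:14766216-14808368, minus strand) and Car2 (chr3:14886273-14900770, plus strand) are both on chromosome 3, Klf1 is at chr8:84901928-84905291 (plus strand) and Ermap at chr4:119175457-119190011 (minus strand).

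The 15 libraries formed 5 groups of 3. All cells were labelled CD45.2+ LSK on a C57BL/6 background. The WT libraries carried replicate names B28, B30 and B31. The other 4 groups came from lethally irradiated CD45.1 hosts that had received Idh2 R140Q Jak2 V617F bone marrow, with both alleles turned on by the Mx1-Cre allele after polyI:polyC injection, a system that recombines in many blood cell types, mixed with CD45.1 competitor marrow. These hosts were given vehicle (A1, A3 and A4), the mutant IDH2 inhibitor AG221 (A8, A9 and A10), the JAK1/2 inhibitor ruxolitinib (Rux; A14, A16 and A17), or both drugs (combo; B24, B25 and B26). Per the labels, AG221 was given at 40 mg/kg and ruxolitinib at 60 mg/kg by gavage for 21 to 28 days, with the last dose about 1.5 hours before sacrifice. The ages of the mice behind single libraries, whether the WT cells had been transplanted, and whether mice were pooled for a library are not given in the sources used here, so the p-values measure the spread between these libraries.

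Red blood cells form when early progenitors commit to the erythroid lineage under erythropoietin, which signals through JAK2, and under the transcription factors GATA1 and KLF1. Committed cells take up iron through the transferrin receptor, build heme in a pathway whose first erythroid step is catalyzed by ALAS2, and combine it with alpha and beta globin chains into hemoglobin. Carbonic anhydrases convert carbon dioxide in the mature red cell, and Ermap encodes an erythroid surface protein of the immunoglobulin superfamily. The activating Jak2 V617F mutation is the typical lesion of polycythemia vera, a disease of red cell excess.

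Libraries held between 18836625 and 32174287 counts. Levels are given as CPM, the counts of a gene per 1000000 counts of its TMM-scaled library. The 14 stem and early progenitor markers summed to 4550 to 4958 CPM in WT, above all 12 mutant libraries at 2584 to 4064 CPM, with Kit at 740 CPM or more in every library. With vehicle against WT, 2 of the 14 were called higher and 3 lower, against 15.4% and 17.9% of all tested genes. Their part in the globin differences was not tested. Ly6a, which encodes Sca-1, ranged from 13.1 CPM in vehicle A4 to 165.8 CPM in vehicle A1. The WT libraries expressed Xist at 455 to 511 CPM and Ddx3y at no more than 0.101 CPM, whereas the mutant libraries held Xist at no more than 19.5 CPM and Ddx3y at 124 CPM or more, so genotype and sex cannot be told apart in any comparison with WT. The letter of the replicate names also divides the groups. Vehicle, AG221 and ruxolitinib carry the letter A, combo and WT carry the letter B, and the sources do not say what it stands for, so the letter cannot be told apart from the group where vehicle, AG221 or ruxolitinib is set against WT or combo. It also enters the departure of combo from the sum of both drugs.

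One library stood apart. Rux A16 had the highest level of 8 of the 9 genes among the 15 libraries, and the calls of the 9 genes that turn on it are given with and without it. Its levels were 7.85 to 11.2 times the mean of the other 2 ruxolitinib libraries for the 4 globin genes, 9.38 times for Alas2, 4.01 times for Ermap, 3.33 times for Car1 and 2.38 times for Car2. Klf1 was the exception, at 0.851 times that mean.

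The proximal promoters of the genes that moved together are shown first, with that of Klf1, which did not move with them. RefSeq start sites of the GRCm38.p6 build gave a window of 250 bases upstream for 7 of the 9 genes, and Car1 and Car2 had none in the table used. Only the bases ahead of the first GENCODE exon of each gene are printed, 5′ to 3′ on the gene's strand from position -250. Capitals mark GATAA or its reverse complement TTATC, the core of the GATA factor motif, and CACCC or its reverse complement GGGTG, the core of the motif of KLF1 and related factors. The alpha globin windows share 247 bases as 1 unbroken run, offset by 3 bases. The stretch of Hba-a2 (chr11:32296242-32296488, plus strand) thus also stands upstream of the RefSeq start of Hba-a1. Only the first 89 bases of the Hba-a1 window lie ahead of the first GENCODE exon of that gene. The stretches of Hbb-bs (chr7:103828097-103828178, minus strand), Hbb-bt (chr7:103813997-103814173, minus strand), Alas2 (chrX:150547167-150547374, plus strand) and Klf1 (chr8:84901732-84901927, plus strand) follow.
Hba-a2: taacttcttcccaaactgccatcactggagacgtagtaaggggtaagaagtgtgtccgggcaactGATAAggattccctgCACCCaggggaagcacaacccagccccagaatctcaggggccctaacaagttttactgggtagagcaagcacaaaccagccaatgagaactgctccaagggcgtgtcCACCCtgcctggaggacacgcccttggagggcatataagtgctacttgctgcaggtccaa
Hbb-bs: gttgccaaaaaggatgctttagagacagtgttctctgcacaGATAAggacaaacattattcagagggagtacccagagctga
Hbb-bt: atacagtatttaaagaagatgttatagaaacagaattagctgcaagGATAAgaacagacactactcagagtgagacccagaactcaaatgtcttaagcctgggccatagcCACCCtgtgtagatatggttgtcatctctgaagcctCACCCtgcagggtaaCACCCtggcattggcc
Alas2: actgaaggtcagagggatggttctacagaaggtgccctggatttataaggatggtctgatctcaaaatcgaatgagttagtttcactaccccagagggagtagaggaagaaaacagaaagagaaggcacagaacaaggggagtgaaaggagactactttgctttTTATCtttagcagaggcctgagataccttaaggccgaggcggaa
Klf1: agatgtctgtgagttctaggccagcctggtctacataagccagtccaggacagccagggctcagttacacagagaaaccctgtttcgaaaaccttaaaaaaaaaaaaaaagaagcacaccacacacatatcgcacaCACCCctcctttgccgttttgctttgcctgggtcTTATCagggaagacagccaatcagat

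On either strand, AGATAA was found in 2 of the 7 windows (Hbb-bs and Alas2), against 9.99% of all 32851 windows of the same length. CACACCC was found in 2 (Hbb-bs and Klf1) against 6.93%, and TATAAA in 3 (Hbb-bt, Alas2 and Ermap) against 12.4%. Shorter motifs, chosen after seeing the data, were more common. GATAA, contained in AGATAA, and CACCC, contained in CACACCC, were each present in all 7 windows, against 22.6% and 52% of all windows. CCAAT was present in 6 of 7 windows against 33.8%, and TATAA, contained in TATAAA, in 6 of 7 against 22.8%. The alpha globin windows, which share 247 bases, count as 2 of the 7. The GATAA core began 182 and 185 bases ahead of the start in the alpha globin windows and 209 and 204 bases ahead of it in Hbb-bs and Hbb-bt. These matches describe letters in a window and say nothing of which factor binds there. The Klf1 window held both cores, as the globin windows did. Any link between these motifs and the levels of the genes was not tested.

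The globin genes were expressed at low levels in all LSK libraries and were higher in vehicle-treated mutant cells than in WT cells. Hbb-bs, the more abundant of the adult beta globin genes here, was at 5.12, 12.9 and 17.3 CPM in WT B28, B30 and B31 and at 75.3, 65.4 and 46.7 CPM in vehicle A1, A3 and A4. In the treated groups it was at 47.1, 109.1 and 52.4 CPM in AG221 A8, A9 and A10, at 55.4, 609.3 and 53.2 CPM in Rux A14, A16 and A17, and at 17.4, 10.02 and 11.7 CPM in combo B24, B25 and B26. The 9 libraries of the vehicle, AG221 and ruxolitinib groups thus lay above all 6 WT and combo libraries, and the WT and combo ranges overlapped. Hba-a1, the more abundant alpha globin gene here, followed the same order. It was at 3.19, 6.00 and 9.36 CPM in WT, at 24.9, 21.6 and 20.8 CPM in vehicle, at 13.9, 44.9 and 18.4 CPM in AG221, at 21.2, 195.8 and 18.2 CPM in ruxolitinib, and at 6.00, 4.11 and 6.94 CPM in combo, each in the order of replicates given above. Again no combo or WT library reached the lowest of the other 9.

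Hbb-bt, the other adult beta globin gene, was at 2.79 to 5.77 CPM in WT, 12.9 to 14.8 CPM in vehicle, 11.1 to 19.5 CPM in AG221 and 4.94 to 7.10 CPM in combo, and at 10.03, 77.3 and 9.66 CPM in Rux A14, A16 and A17. Hba-a2, the other alpha gene, was at 0.435 to 1.38 CPM in WT, 3.55 to 7.41 CPM in vehicle, 3.16 to 9.34 CPM in AG221 and 0.648 to 2.40 CPM in combo, and at 5.37, 54.2 and 5.22 CPM in the same ruxolitinib libraries. Both repeated the separation of WT and combo from the other 3 groups. The transcripts of the paralogs share much of their sequence. Of all 50-base windows, 72.3% of those of Hba-a1 were also present in Hba-a2, and 53.2% of those of Hbb-bs were also present in Hbb-bt, so the division of counts within each pair is uncertain and the sums are given as well.

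Summed over the 4 genes, globin reached 23.1 ± 11.2 CPM (SD, n = 3) in WT, 104.0 ± 18.1 CPM in vehicle, 116.0 ± 58.3 CPM in AG221, 371.6 ± 489.3 CPM in ruxolitinib and 25.9 ± 6.46 CPM in combo. The ruxolitinib mean rested on Rux A16 at 936.7 CPM, and the other 2 ruxolitinib libraries were at 92.0 and 86.2 CPM, within the vehicle range of 84.7 to 120.6 CPM. Globin counts made up between 0.00131% of all counts in WT B28 and 0.0893% in Rux A16. The ranges of vehicle and WT, and those of combo and vehicle, did not overlap, and the exact two-sided permutation test on the log2 sums gave p = 0.10 for each, the smallest value that 3 against 3 libraries allow (Benjamini-Hochberg adjusted p = 0.15 over 9 comparisons). In bulk libraries, fewer cells of a type and less RNA per cell cannot be told apart.

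**Figure D1:**
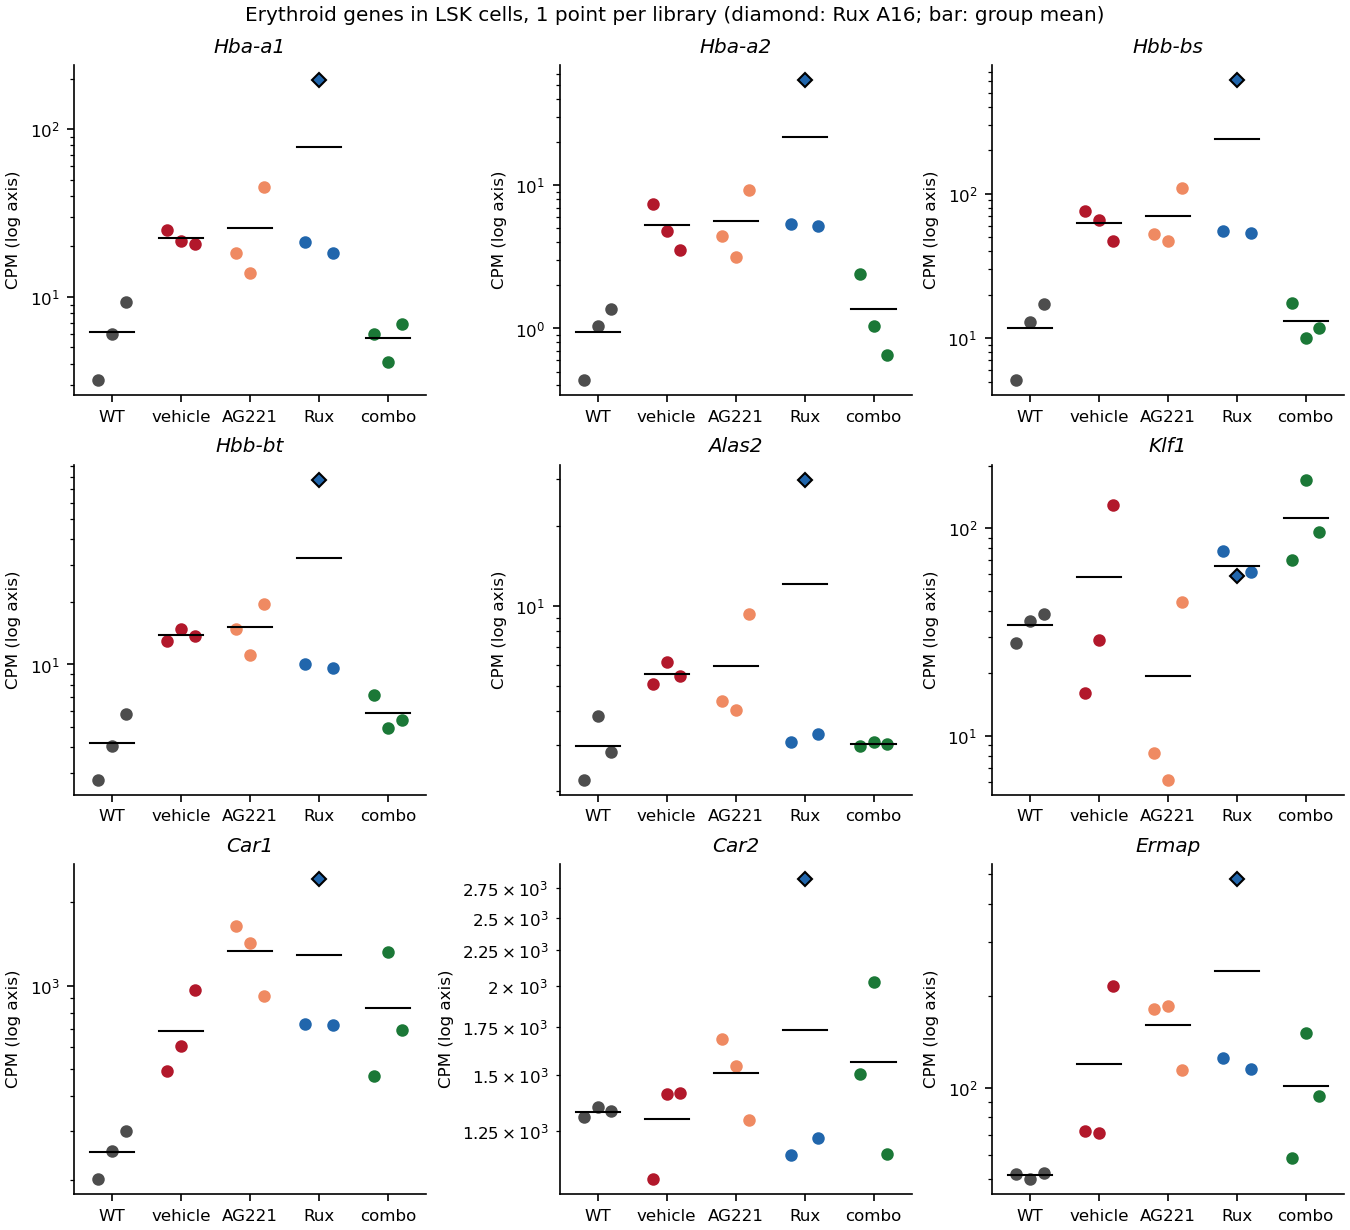
Levels of the 9 erythroid genes in CPM (log axes), 1 point per library, with the group mean as a bar and Rux A16 as a diamond. The globin genes sat low in WT and combo and high in vehicle, AG221 and ruxolitinib, with Hbb-bs at 609.3 CPM in Rux A16. Klf1 did not follow this order.

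The fits placed sizes and errors on these differences. With vehicle against WT, Hbb-bs was 5.31-fold higher (log2 fold change 2.41, SE 0.799, adjusted p = 0.0348, edgeR quasi-likelihood test) and Hba-a2 5.49-fold higher (2.46, SE 0.867, adjusted p = 0.0438). Hba-a1 (1.86, adjusted p = 0.076) and Hbb-bt (1.72, adjusted p = 0.0523) did not pass the threshold. Of all 9 erythroid genes, 3 were called higher and none lower, against 15.4% of all tested genes called higher and 33.3% called in either direction. Levels did not overlap between vehicle and WT for 7 of the 9 genes, all higher, against 25.6% of all tested genes. The alpha pair summed gave 1.95 (SE 0.770, adjusted p = 0.0648) and the beta pair 2.26 (SE 0.761, adjusted p = 0.0371). Without Rux A16, which belongs to neither group but enters the shared estimate of spread, the fold changes were nearly the same and 7 of the 9 genes were called higher (37.7% of all tested genes called in either direction in that fit), with Hbb-bs at 2.45 (SE 0.423, adjusted p = 0.00287). With vehicle A4, WT B28 or WT B30 left out, 0 were called, with vehicle A1, A3 or WT B31 left out 1 was called, and with Rux A17 left out 5 were called. Over all tested genes, 3717, 4286 and 1901 were called without vehicle A4, WT B28 and WT B30, against 5937 with all libraries. Without vehicle A1, vehicle A3, WT B31 and Rux A17 they numbered 3493, 5907, 5624 and 6329.

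Globin levels were lower with combined treatment than with vehicle in every library, although whether the fit called the difference depended on 1 library of another group. Against vehicle, the log2 fold change was -2.26 (SE 0.796, adjusted p = 0.0831) for Hbb-bs, -1.98 (SE 0.776, adjusted p = 0.117) for Hba-a1, -1.96 (SE 0.855, adjusted p = 0.16) for Hba-a2 and -1.25 (SE 0.628, adjusted p = 0.226) for Hbb-bt. None of the 9 genes was called by edgeR, against 12.5% of all tested genes, and 3 had an unadjusted p under 0.05. DESeq2, which gave an adjusted p for only 5 of the 9 genes, called none of them. With Rux A16 left out, the 4 globin genes were called lower in combo (13% of all tested genes called in that fit), with Hbb-bs at -2.29 (SE 0.421, adjusted p = 0.00392), Hba-a1 at -2.01 (adjusted p = 0.00922), Hbb-bt at -1.28 (adjusted p = 0.00863) and Hba-a2 at -1.99 (adjusted p = 0.0291). Levels of 5 of the 9 genes, the globin genes and Alas2, lay wholly below vehicle in combo, against 15.2% of all tested genes. A fit of these groups alone also called 4 genes, among them Hbb-bs (adjusted p = 0.0171), but Hba-a2 was not among them and Alas2 was.

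Between combo and WT, which share the replicate letter, none of the 9 genes was called by edgeR (3.25% of all tested genes were), 2 had an unadjusted p under 0.05 (Klf1 and Car1), DESeq2 called 1, and the summed globin ranges overlapped, from 20.1 to 32.9 CPM in combo and from 11.5 to 33.8 CPM in WT (exact permutation p = 0.7, adjusted p = 0.9). AG221 and ruxolitinib alone were each set against vehicle within the letter A. DESeq2, which gave an adjusted p for only 5 of the 9 genes, called none of them. By edgeR none of the 9 was called either, against 0.987% and 0.0168% of all tested genes. Without Rux A16 there was again none (0.00523% of all tested genes for AG221). At an unadjusted p under 0.05 there were 0 of 9 genes for AG221 and 3 for ruxolitinib. The libraries of AG221 and vehicle overlapped in all 9 genes, and so did those of ruxolitinib and vehicle (20% and 8.17% of all tested genes did not overlap). The sign of the ruxolitinib fold changes of Hbb-bs, Hba-a1, Hbb-bt and Alas2 was set by Rux A16. Hbb-bs was at 1.94 with it and -0.20 without it, Hba-a1 at 1.81 and -0.19, Hbb-bt at 1.23 and -0.49, and Alas2 at 1.11 and -0.80, none of them called. For Hba-a2, Klf1, Car1 and Ermap, the mean of the other 2 ruxolitinib libraries was still above that of vehicle. For Hba-a2 these means were 5.30 and 5.26 CPM, and for Car1 723.7 and 687.6 CPM. For Car2 the mean was below that of vehicle, at 1189 against 1297 CPM.

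Against WT, globin levels were higher with either monotherapy. In AG221 the log2 fold changes were 2.56 for Hbb-bs (SE 0.803, adjusted p = 0.0181), 2.56 for Hba-a2 (adjusted p = 0.0264), 1.85 for Hbb-bt (adjusted p = 0.0281) and 2.05 for Hba-a1 (adjusted p = 0.04), all called. In this comparison 6 of the 9 genes were called higher, against 22.2% of all tested genes, whose median fold change was -0.25. Without Rux A16, 7 were called (50.9% of all tested genes in either direction). Leaving out WT B28 or WT B30 left 1 call, Car1, and leaving out AG221 A10 left 3. Over all tested genes these fits called 7689, 6513 and 6748, against 9040 with all libraries. In ruxolitinib, 7 of the 9 were called higher (16.1% of all tested genes), and 5 without Rux A16, the 4 globin genes and Car1 (16.2% of all tested genes in either direction). There Hbb-bs was at 4.35 (SE 0.866) with Rux A16 and at 2.25 (SE 0.448, adjusted p = 0.0101) without it.

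The globin genes were also compared between combined treatment and each drug alone. Against AG221, Hbb-bs (-2.42, SE 0.801, adjusted p = 0.0337) and Hba-a1 (-2.18, SE 0.781, adjusted p = 0.0458) were called lower, while Hba-a2 (-2.06, adjusted p = 0.0797) and Hbb-bt (-1.38, adjusted p = 0.107) were not. With Klf1, which was higher, this made 3 of 9 genes called, against 33.2% of all tested genes. The count was 6 without Rux A16 (32.9% of all tested genes), 0 without AG221 A8, AG221 A10 or combo B25, and 1 without AG221 A9, combo B24 or combo B26. Over all tested genes, 3002, 3234 and 4062 were called in the fits with 0, and 8140, 3283 and 4802 in those with 1. With all libraries 5917 were called. Against ruxolitinib, the 4 globin genes were called lower, against 3.94% of all tested genes called lower, from -2.48 for Hbb-bt (adjusted p = 0.023) to -4.20 for Hbb-bs (SE 0.862, adjusted p = 0.00635). Without Rux A16, Hbb-bs (-2.10, SE 0.448, adjusted p = 0.0166) and Hba-a1 (-1.83, SE 0.470, adjusted p = 0.0348) were still called (6.88% of all tested genes were) and Hba-a2 (adjusted p = 0.0581) and Hbb-bt (adjusted p = 0.151) were not. Leaving out combo B25 also left 2 calls, with 1251 of all tested genes called against 2217 with all libraries.

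**Figure D2:**
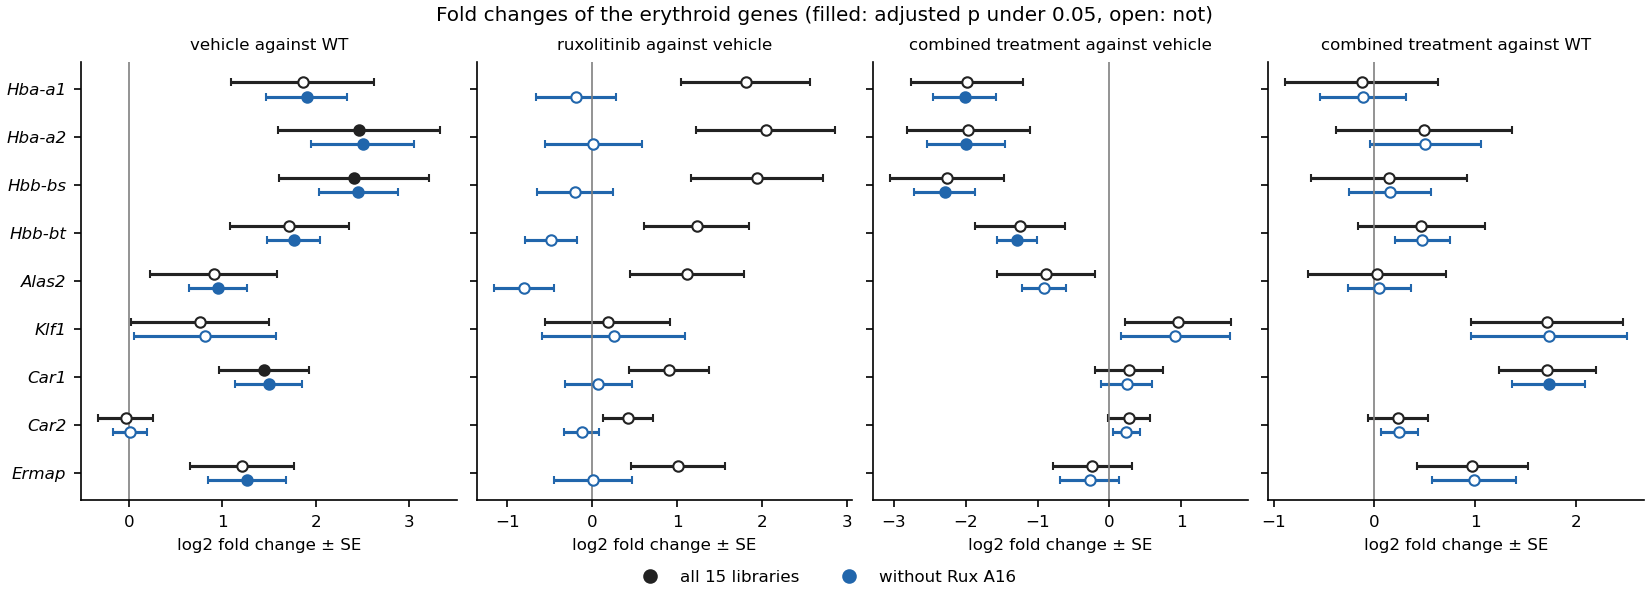
Log2 fold changes with SE bars for the 9 genes in 4 comparisons, with all 15 libraries (black) and without Rux A16 (blue), where filled points have an adjusted p under 0.05 in edgeR and open points do not. In vehicle against WT and in combo against vehicle the points moved little and the errors of the globin genes narrowed without Rux A16, whereas in ruxolitinib against vehicle Hbb-bs moved from 1.94 to -0.20.

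Markers of other cells moved with the globin genes in part. The 14 neutrophil markers summed to 3485 to 3847 CPM in WT, 7880 to 12870 CPM in vehicle, 17490 to 20550 CPM in AG221, 12220 to 19440 CPM in ruxolitinib and 4311 to 7760 CPM in combo, and 6 of the 14 were called higher in vehicle than in WT, against 15.4% of all tested genes. Mpo carried most of this sum, with means of 2305 CPM in WT and 6669 CPM in vehicle. The other members were mixed, with means in WT and vehicle of 2.53 and 22.1 CPM for Lcn2 but 4.83 and 4.93 CPM for Retnlg. The 10 mast cell and basophil markers summed to 84.4 to 165.9 CPM in WT, 617 to 1098 CPM in vehicle, 584 to 764 CPM in AG221, 314 to 435 CPM in ruxolitinib and 276 to 463 CPM in combo, and 7 of the 10 were called higher in vehicle than in WT. The 14 megakaryocyte markers summed to 509 to 632 CPM in WT, 1212 to 1336 CPM in vehicle, 729 to 914 CPM in AG221, 1022 to 1133 CPM in ruxolitinib and 814 to 1386 CPM in combo, where they overlapped vehicle as the globin genes did not. The 15 monocyte and macrophage markers summed to 291 to 362 CPM in WT, 886 to 939 CPM in vehicle, 1519 to 2323 CPM in AG221, 876 to 1358 CPM in ruxolitinib and 477 to 865 CPM in combo. With vehicle against WT, 7 of the 13 tested megakaryocyte markers were called higher, and 4 monocyte and macrophage markers were called higher and 3 lower. Lymphoid markers also differed from WT. The 11 T and NK cell markers summed to 162 to 225 CPM in WT and to 370 to 762 CPM in the mutant libraries, with 1 of 9 tested called higher in vehicle than in WT. Nkg7 carried nearly all of this sum, at a mean of 174.3 CPM in WT and 425.8 CPM in vehicle. Every other gene of the list had a lower mean in vehicle than in WT, such as Cd4 at 0.733 and 3.45 CPM. The 7 plasma cell markers summed to 600.2 to 1301 CPM in WT and to 35.1 to 218 CPM in the mutant libraries, with 6 of 7 called lower in vehicle, and the 9 B cell markers to 71.9 to 107 CPM and 29.7 to 59.5 CPM, with 5 of 9 called lower, against 17.9% of all tested genes. Rux A16 was the lowest ruxolitinib library for neutrophil markers. The part of these cells in the globin differences was not tested.

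The composition of the globin counts varied less than their amount. Alpha globin made up 30.9 ± 1.28% (SD, n = 3) of globin counts in WT, 26.8 ± 1.97% in vehicle, 25.9 ± 3.55% in AG221, 27.6 ± 1.15% in ruxolitinib and 27.3 ± 2.93% in combo. In Rux A16 the share was 26.7% (95% Wilson interval 26.1% to 27.3%), inside the range of the other libraries, 22.7% to 31.8%. The WT range of 29.4% to 31.8% lay wholly above those of vehicle (24.8% to 28.7%) and ruxolitinib (26.7% to 28.9%), each at p = 0.10 in the exact two-sided permutation test (adjusted p = 0.45 over 9 comparisons), and it overlapped those of AG221 (22.7% to 29.7%) and combo (25.6% to 30.7%). With 3 against 3 libraries no comparison of this share could reach 0.05. Within the beta pair, Hbb-bs took 88.7% of counts in Rux A16, 77.3% to 85.4% in vehicle, 67.0% to 71.0% in combo and 64.7% to 76.1% in WT. These intervals cover counting error only, since amplified reads without molecular identifiers are not independent molecules. The embryonic genes were nearly absent. Hba-x and Hbb-bh1 had at most 2 counts in any library, and Hbb-y passed 3 counts in 1 library.

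**Figure D3:**
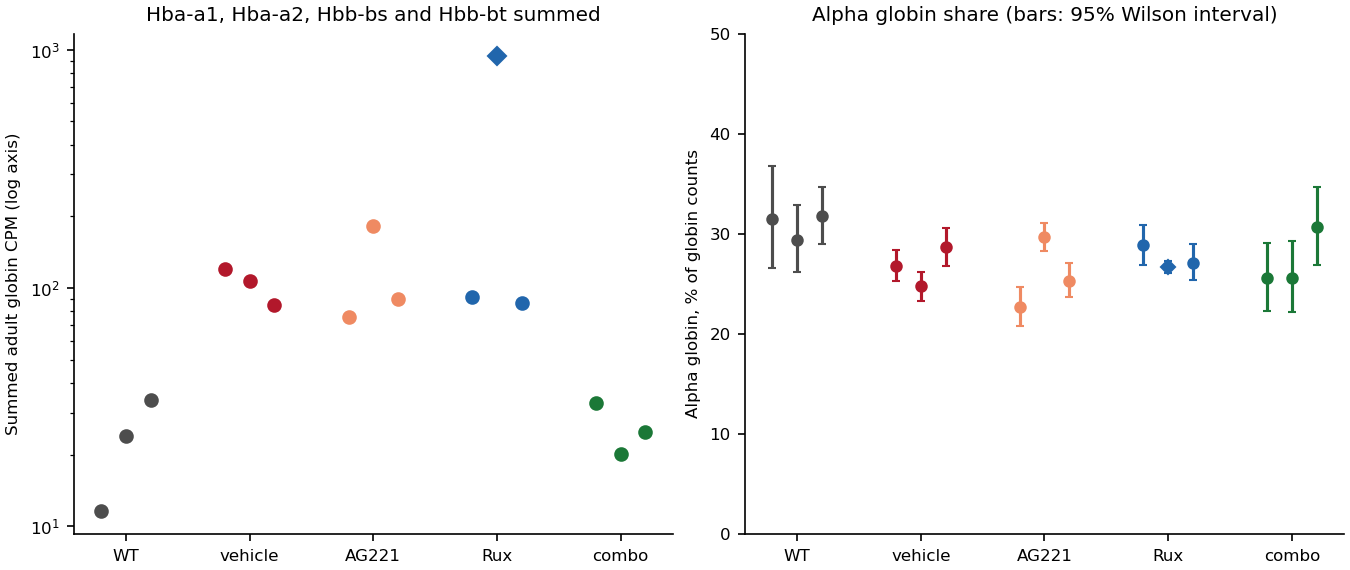
Summed adult globin CPM (left, log axis) and the alpha globin share of globin counts with 95% Wilson intervals (right), 1 point per library, Rux A16 as a diamond. The sums spanned 11.5 to 936.7 CPM, while the alpha share stayed between 22.7% and 31.8%.

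Alas2 encodes the erythroid form of 5-aminolevulinate synthase, which starts heme synthesis in red cell precursors. It was at 2.21, 3.84 and 2.82 CPM in WT, 5.08, 6.13 and 5.45 CPM in vehicle, 4.06, 9.29 and 4.37 CPM in AG221, 3.06, 29.7 and 3.28 CPM in ruxolitinib, and 2.97, 3.08 and 3.01 CPM in combo. The 3 vehicle libraries lay above all WT and combo libraries, and 2 of the 3 ruxolitinib libraries lay within the WT range. The log2 fold change was 0.91 for vehicle against WT (SE 0.680, adjusted p = 0.312) and -0.88 for combo against vehicle (SE 0.684, adjusted p = 0.459), neither of them called. Without Rux A16 the first was called (0.96, SE 0.311, adjusted p = 0.0298) and the second was not (-0.91, adjusted p = 0.0745). Against WT, the ruxolitinib difference was called at 2.02 (adjusted p = 0.0408) with Rux A16 and was 0.15 (adjusted p = 0.771) without it. Alas2 lies on the X chromosome (chrX:150547375-150570638 in GRCm38, plus strand), and 15.5% of its exon bases overlap exons of Apex2 and Mir3620 on the opposite strand. Apex2 was at 16.4 to 29.3 CPM, and whether the counting used strand is not given in the sources used here, so reads of the 2 genes in that stretch cannot be told apart.

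Alas1, which encodes the housekeeping form of the same enzyme, rose from 144.4 ± 14.8 CPM (SD, n = 3) in WT to 346.4 ± 100.4 CPM in vehicle (log2 fold change 1.26, SE 0.229, adjusted p = 0.00352) and was lower in combo, at 205.8 ± 57.6 CPM, than in vehicle (-0.75, SE 0.226, adjusted p = 0.0445). Alad, the next enzyme of the pathway, also rose in vehicle (0.67, adjusted p = 0.0308). Of the 9 heme synthesis genes, Alas2 included, 2 rose and 7 did not pass with vehicle against WT (15.4% of all tested genes were called higher), with a median of 0.50, against -0.09 over all tested genes. With combo against vehicle, Alas1 fell and Cpox, which encodes a late enzyme of the pathway, rose (2.55, SE 0.5504, adjusted p = 0.00888), against 4.21% of all tested genes called lower and 8.28% called higher. The list median of that comparison was 0.04, as it was over all genes.

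Tfrc, which encodes the transferrin receptor, rose from 110.2 ± 4.15 CPM in WT to 452.3 ± 109.3 CPM in vehicle (2.04, SE 0.354, adjusted p = 0.0029) and fell to 160.8 ± 31.1 CPM in combo (-1.49, SE 0.349, adjusted p = 0.0134 against vehicle). Of the 10 iron supply genes, 5 rose and none fell with vehicle against WT, against 15.4% of all tested genes called higher, among them Steap3 (1.29, adjusted p = 0.0218) and Slc11a2 (1.23, adjusted p = 0.0224). In combo against vehicle 2 fell and none rose, against 4.21% called lower. Tfrc also serves dividing cells of every lineage.

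Klf1 showed a pattern of its own. It encodes the zinc finger factor that activates adult beta globin and much of the red cell program. It was at 28.1, 35.9 and 38.7 CPM in WT, 16.02, 29.1 and 129.0 CPM in vehicle, 6.16, 44.0 and 8.29 CPM in AG221, 77.3, 59.0 and 61.4 CPM in ruxolitinib, and 70.1, 171.3 and 95.8 CPM in combo. Combo was thus high in Klf1 where its globins were low, vehicle spanned more than the whole WT range, and Rux A16 was the lowest ruxolitinib library. The difference between combo and AG221 was called (log2 fold change 2.53, SE 0.779, adjusted p = 0.0246), and the levels of the 2 groups did not overlap. The differences of 0.76 for vehicle against WT (SE 0.739, adjusted p = 0.438), 0.96 for combo against vehicle (SE 0.740, adjusted p = 0.455), -1.58 for AG221 against vehicle (SE 0.755, adjusted p = 0.21) and 1.72 for combo against WT (SE 0.754, adjusted p = 0.174) were not. Single libraries decided several of these values. Without vehicle A4, Klf1 was at -0.58 in vehicle against WT and at 2.31 in combo against vehicle (adjusted p = 0.0622). Without AG221 A9, it was called lower in AG221 than in vehicle (-3.01, adjusted p = 0.00984) and than in WT (-2.23, adjusted p = 0.0177), and the difference between combo and AG221 was 3.96 (adjusted p = 0.00128). Of the 19125 genes tested in that fit, 4672, 10793 and 8140 were called in these comparisons. With all libraries 176, 9040 and 5917 of 17834 were called. The difference of Klf1 between combo and AG221 was not called without AG221 A8, AG221 A10 or combo B25.

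Klf1 transcripts are rich in G and C (61% in the longest transcript), and libraries differed in how such genes were covered. The 3401 tested genes with at least 55% GC deviated from their mean over all libraries by a median log2 value of -0.70 in AG221 A8 and -0.47 in AG221 A10, and by -0.22 in Rux A16. In the other 12 libraries this median lay between -0.08 and 0.26. The 2 libraries with the largest shift were the 2 with the lowest Klf1 level. With GC content offsets per library, chosen after seeing the data, Klf1 was higher in combo than in AG221 by 1.78 (SE 0.601, adjusted p = 0.032) in place of 2.53, and AG221 differed from vehicle by -1.28 (adjusted p = 0.183). The GC content was 57.2% for Hba-a1 and 56.9% for Hba-a2, inside this GC-rich class, and 51.3% for Hbb-bs and 50.8% for Hbb-bt, outside it. The alpha share of globin counts was 22.7%, 29.7% and 25.3% in AG221 A8, A9 and A10. The part of the GC shift in the globin levels and in this share was not tested.

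**Figure D4:**
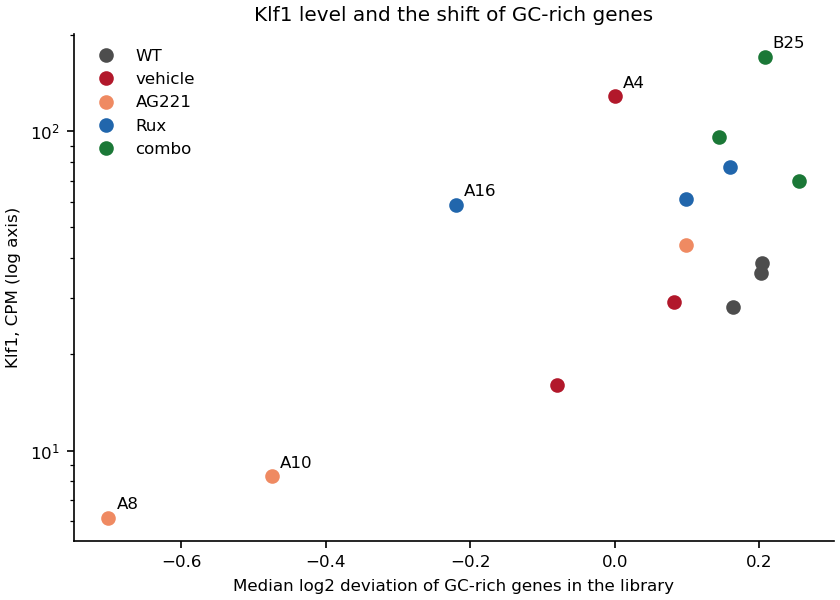
Klf1 level (CPM, log axis) against the median log2 deviation of the 3401 GC-rich genes, 1 point per library, colored by group. AG221 A8 and A10, at -0.70 and -0.47, had the lowest Klf1 levels, 6.16 and 8.29 CPM. Vehicle A4 and combo B25 had the highest.

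Gata1, whose product binds the GATA motif at globin and other red cell genes, was at 36.3 ± 3.76 CPM in WT and between 132.8 and 149.5 CPM on average in the 4 mutant groups, and it was called higher than in WT with vehicle (1.89, SE 0.380, adjusted p = 0.00531) and also with combo (1.93, SE 0.380, adjusted p = 0.0193). Gata1 is X-linked. Ldb1, Klf3 and Lmo2 were lower in vehicle than in WT and higher in combo than in vehicle. Lmo2, which encodes a bridging protein of GATA1 and TAL1 complexes, was at 596.0 ± 107.6 CPM in WT, 205.5 ± 60.9 CPM in vehicle and 676.6 ± 136.9 CPM in combo (-1.54, adjusted p = 0.01, and then 1.72, SE 0.366, adjusted p = 0.00839). Ldb1, its binding partner, changed by -1.04 (adjusted p = 0.00899) and then by 1.54 (adjusted p = 0.0025).

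In numbers, 2 of the 15 genes of this list, which includes Klf1 and the erythropoietin receptor gene Epor, rose and 3 fell with vehicle against WT, against 15.4% and 17.9% of all tested genes. With combo against vehicle 5 rose and none fell, against 8.28% called higher, the other 2 being Zfpm1 and Tal1. With combo against AG221, 10 of the 15 rose, Klf1 among them, and none fell, against 18.9% of all tested genes called higher. The median of the list there was 1.08, against 0.11 over all tested genes. The summed level of the list ran from 1884 to 2864 CPM in combo, 1576 to 1791 CPM in WT, 1231 to 1827 CPM in vehicle, 1509 to 1520 CPM in ruxolitinib and 748 to 1279 CPM in AG221, with the lowest sums in AG221 A8 and A10, the libraries in which GC-rich genes were low.

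Car1 encodes carbonic anhydrase 1, a cytosolic enzyme abundant in red cells. It was at 201.9, 254.6 and 301.0 CPM in WT, 493.6, 605.0 and 964.2 CPM in vehicle, 1421, 920.6 and 1638 CPM in AG221, 725.6, 2410 and 721.8 CPM in ruxolitinib, and 472.3, 1326 and 691.1 CPM in combo. All 12 mutant libraries lay above all 3 WT libraries, with or without drug. The log2 fold change against WT was 1.45 for vehicle (SE 0.479, adjusted p = 0.0347), 2.39 for AG221 (SE 0.494, adjusted p = 0.00215) and 2.35 for ruxolitinib (SE 0.493, adjusted p = 0.00618), all called. For combo against WT it was 1.72 (SE 0.483, adjusted p = 0.0637), which passed without Rux A16 (1.73, SE 0.361, adjusted p = 0.0272, with 3.39% of all tested genes called). It also passed without AG221 A9, where 1306 of 19125 tested genes were called, against 579 of 17834 with all libraries. The globin genes had no such difference between combo and WT. For AG221 against vehicle the value was 0.95 (SE 0.473, adjusted p = 0.228).

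Car2 encodes carbonic anhydrase 2, which is made in red cells and in many other cell types. It varied little, at 1330 ± 22.1 CPM (SD, n = 3) in WT, 1297 ± 198 CPM in vehicle, 1507 ± 197 CPM in AG221, 1737 ± 949 CPM in ruxolitinib and 1564 ± 439 CPM in combo. The 2 ruxolitinib libraries other than Rux A16, which was at 2833 CPM, were at 1157 and 1222 CPM. All groups overlapped in their neighbors, and no comparison called Car2. Of the 5 tested carbonic anhydrase genes, Car1, Car13 and Car3 rose and Car5b fell with vehicle against WT, against 15.4% and 17.9% of all tested genes, and none was called with combo against vehicle (12.5% of all tested genes were). Per kilobase of exon, the group means of Car1 (202 to 1063 CPM per kb) and Car2 (536 to 717 CPM per kb) were above those of Hbb-bs (15.3 to 312 CPM per kb) in every group.

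Ermap was at 52.1, 50.1 and 52.6 CPM in WT, 72.2, 71.2 and 215.2 CPM in vehicle, 184.7, 114.1 and 181.6 CPM in AG221, 125.4, 481.8 and 114.9 CPM in ruxolitinib, and 58.8, 151.1 and 93.8 CPM in combo. As with Car1, every mutant library was above every WT library. Vehicle A4 stood above the other 2 vehicle libraries here as it did for Klf1, and it was also the library with the least Ly6a. The log2 fold change against WT was 1.63 for AG221 (SE 0.560, adjusted p = 0.0272) and 2.22 for ruxolitinib (SE 0.571, adjusted p = 0.0136), both called, and 1.21 for vehicle (SE 0.554, adjusted p = 0.104) and 0.97 for combo (SE 0.552, adjusted p = 0.285), which were not. Without Rux A16, vehicle was called (1.26, SE 0.417, adjusted p = 0.0321) and ruxolitinib was not (1.27, adjusted p = 0.0673).

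Among the 22 red cell membrane and cytoskeleton genes, Ermap included, 5 rose and none fell with vehicle against WT (15.4% of all tested genes were called higher), with a median of 0.84. Without Rux A16, 13 rose, where 37.7% of all tested genes were called in either direction. Slc4a1, which encodes the band 3 anion exchanger of the red cell, rose from 2.84 ± 1.09 CPM in WT to 21.6 ± 9.14 CPM in vehicle (2.93, SE 0.726, adjusted p = 0.0115) and fell to 3.53 ± 3.82 CPM in combo (-2.62, SE 0.719, adjusted p = 0.0295). It did not share the peak of Rux A16, where it was at 5.98 CPM, the lowest of the ruxolitinib libraries. Icam4, a red cell adhesion molecule, was higher than in WT with vehicle (1.62, adjusted p = 0.0031) and with combo (1.50, SE 0.285, adjusted p = 0.0163). With combo against vehicle, Tspan33 rose and Epb41 and Slc4a1 fell, against 8.28% and 4.21% of all tested genes.

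**Figure D5:**
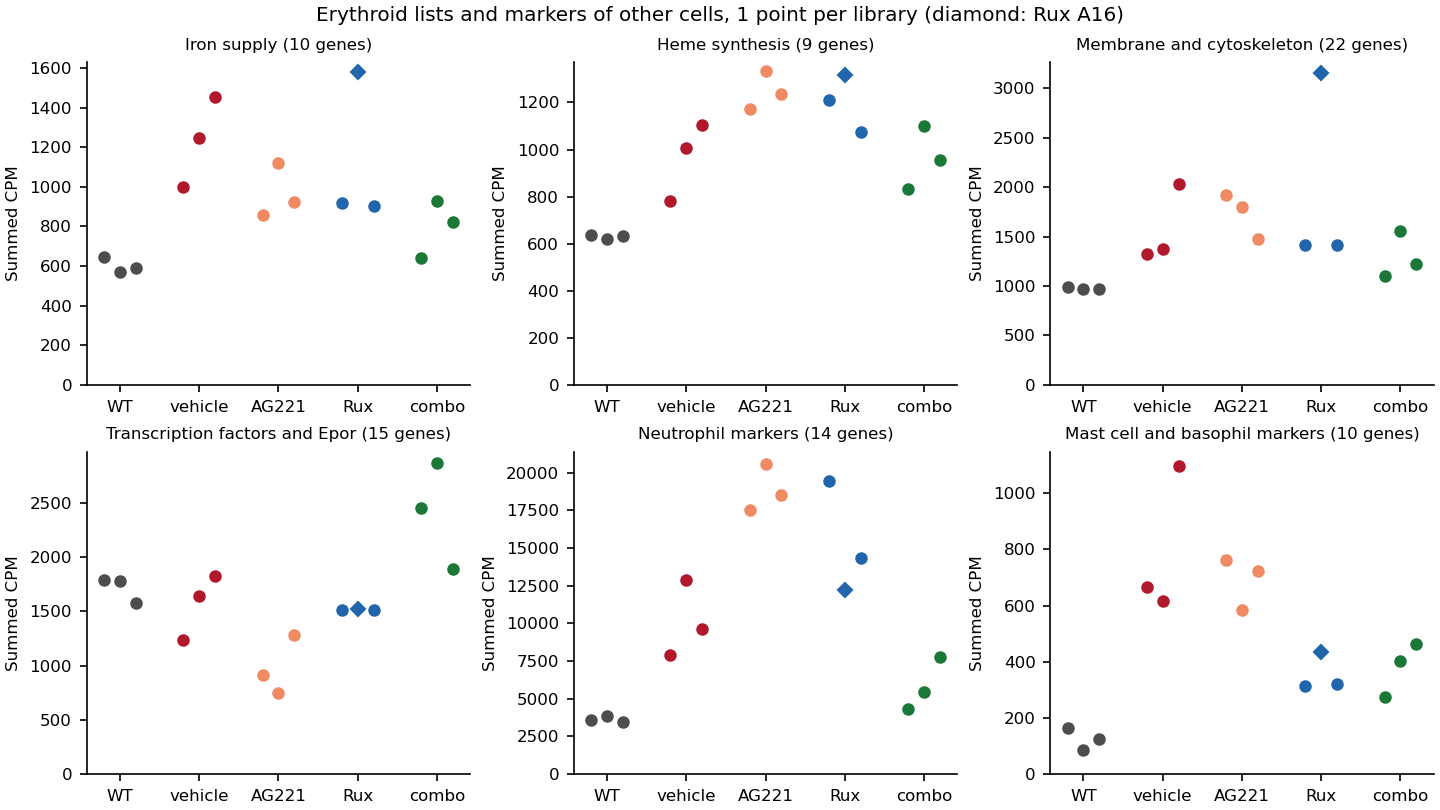
Summed CPM of 4 erythroid gene lists and of neutrophil and of mast cell and basophil markers, 1 point per library, Rux A16 as a diamond. By group medians, iron supply, heme synthesis and membrane genes were lowest in WT, with 1 combo library inside the WT range of iron supply. The transcription factor list had its lowest median in AG221 and its highest in combo, where it ran from 1884 to 2864 CPM.

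Of the 19 genes of red cell metabolism and late maturation, 4 rose and 1 fell with vehicle against WT (15.4% and 17.9% of all tested genes), led by Mfsd2b, a sphingosine 1-phosphate exporter of red cells and platelets (2.12, SE 0.295, adjusted p = 0.000741), which was also higher in combo than in WT (1.80, adjusted p = 0.00804). With combo against vehicle, Glrx5 and Kcnn4 rose and none fell, against 8.28% and 4.21% of all tested genes. Over all erythroid lists without the 9 genes, 20 of 75 tested genes rose and 5 fell with vehicle against WT, against 15.4% and 17.9% of all tested genes, with a median of 0.43 against -0.09. Without Rux A16, 31 rose and 5 fell, where 3322 of all 19129 tested genes were called higher and 3888 lower. With combo against vehicle 9 rose and 5 fell, against 8.28% and 4.21% of all tested genes, with a median of -0.02 against 0.04. With combo against WT 3 rose, Mfsd2b, Icam4 and Gata1, and none fell, against 1.63% and 1.61%.

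Ordered by group medians, the 4 globin genes placed WT and combo last, with a gap to the 3 groups above that no library crossed, and neighbors within each of these 2 blocks overlapped. Alas2 kept this order of blocks, but all its neighboring groups overlapped. Klf1 ran from combo (median 95.8 CPM) through ruxolitinib (61.4 CPM), WT (35.9 CPM) and vehicle (29.1 CPM) to AG221 (8.29 CPM), and only ruxolitinib and WT among these neighbors did not overlap. Car1 and Ermap both ran from AG221 through ruxolitinib, combo and vehicle to WT, and only the last step, from vehicle to WT, was free of overlap. No neighbors of Car2 were apart.

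Across the 15 libraries, the log2 CPM of the globin genes and Alas2 rose and fell together, with Pearson's r from 0.85 to 0.99 over their 10 pairs, and from 0.72 to 0.98 over the 14 libraries without Rux A16. Klf1 had an r between -0.16 and -0.02 with each of these 5 genes, and between -0.30 and -0.19 without Rux A16. Car1 and Ermap had an r of 0.93, and 0.92 without it. These are descriptions of libraries that also share group differences and depth. Outside the 9 genes, the 10 whose log2 CPM was most like the mean standardized level of the 9 over the 15 libraries had an r from 0.88 to 0.96, and 3 of them were also in the erythroid lists. Among the 10 were Asb6 (r = 0.90), Usp46, Mtif2, Slc43a1, Add2, which encodes beta adducin of the red cell membrane skeleton, Ampd3, Armc6 and Sun1 (r = 0.88). Add2 was at 123.8 CPM in Rux A16 and at 10.9, 27.9, 27.6 and 28.0 CPM on average in WT, vehicle, AG221 and combo. Without Rux A16, 0 of these 10 were again among the 10 most alike genes, which then included Mt1 and Rpl27.

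The last comparison asked whether the effect of both drugs differed from the sum of the effects of each. For 3 of the 9 genes the departure was called lower, against 2.82% of all tested genes called lower, 5.6% called higher and 8.42% in either direction, at -4.35 for Hbb-bs (SE 1.12, adjusted p = 0.0399), -3.99 for Hba-a1 (SE 1.09, adjusted p = 0.0443) and -4.10 for Hba-a2 (SE 1.19, adjusted p = 0.0493), while Hbb-bt was at -2.61 (SE 0.884, adjusted p = 0.0715). Without Rux A16 the values were -2.27, -2.04, -2.13 and -0.95, and none was called (1.14% of all tested genes were, adjusted p = 0.073 for Hbb-bs). The count was also 0 without vehicle A3 or A4, AG221 A8 or A10, Rux A17, WT B28 or any single combo library, and 1 without vehicle A1, WT B30 or WT B31. Over all tested genes, the fits with 0 called between 44 (without combo B25) and 1460 (without combo B26), against 1502 with all libraries. Those with 1 called 1731, 914 and 832.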

How the data were processed

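RNA from sorted LSK cells was amplified with SMARTer, sequenced as paired ends and aligned by the authors to mm10 with STAR 2.5.1a (version from the submitters' processing notes). The deposited counts are raw reads per Ensembl gene. Strand setting and Ensembl release are not given in the sources used here. The deposited normalized table (DESeq2 1.6.3 in the same notes) was not used. Of 45232 IDs, 44585 matched a symbol in GENCODE M21.

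Counts were fitted with edgeR 4.0.16 in R 4.3.3 (TMM, filterByExpr with a minimum count of 10, quasi-likelihood test, 5 groups in 1 fit, no covariates), with Benjamini-Hochberg adjustment over 17834 genes and calls at an adjusted p under 0.05. Single values were compared by exact permutation. Library totals ranged from 18836625 to 32174287, and the number of libraries limits the precision. The fits were tested on simulated data. Alternatives were DESeq2 1.42.0, other scalings and filters, fits of the compared groups alone, summed paralogs, leaving out each library and, chosen after seeing the data, GC offsets (lowess span 0.3). The 9 genes and the lists were chosen with earlier results of these data known. From each list and comparison, up to 4 called genes with the smallest adjusted p were named, plus the 10 genes most like the 9 over the libraries. Others named were chosen after their values were seen. The shorter motifs were also chosen after seeing the data. A few genes that the rule would name are not reported here.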

Additional observations from a re-analysis of the deposited data

Results flagged for a closer look

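In 3 globin genes the change with both drugs differed from the sum of the changes with each drug alone, by a log2 value of -3.986 for Hba-a1, -4.099 for Hba-a2 and -4.353 for Hbb-bs (edgeR interaction contrast, adjusted p = 0.0443, 0.0493 and 0.0399). Without Rux A16 the values were -2.04, -2.13 and -2.27 (adjusted p = 0.0943, 0.131 and 0.073).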

How the results depend on the processing

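Each group had 3 libraries, so 1 library could move a call, and depth did not allow levels below a few counts to be compared. Sex and genotype cannot be told apart against WT, nor the replicate letter and the group where a group named A meets one named B, which combo and WT do not. No paired analysis was possible because the groups share no replicate names. The cause of the changes below was not tested. With vehicle against WT, the genes called numbered 6 with no filter beyond 1 count, 1 with at least 10 counts in every library, 6 with only the groups compared and 5 with GC offsets, in place of 3. With combo against vehicle they numbered 2 with no filter and 4 with only the groups compared, in place of 0. DESeq2, which gave no adjusted p for 4 of the 9 genes, called 3 in AG221 against WT, 3 in ruxolitinib against WT, 1 in combo against WT, 1 in combo against AG221, 1 in combo against ruxolitinib and 1 for the departure from the sum. With combo against WT, no filter and GC offsets each gave 1 and only the groups compared gave 2. With combo against AG221, upper quartile normalization and only the groups compared each gave 5. Summed paralogs also gave 5, but there each pair was tested as 1 sum and is counted as 2 genes. With only the groups compared, combo against ruxolitinib gave 1 and the departure gave 0. Leaving out 1 library gave 0 to 7 genes for vehicle against WT, 0 to 1 for AG221 against vehicle, 0 to 4 for combo against vehicle, 1 to 7 for AG221 against WT, 5 to 7 for ruxolitinib against WT, 0 to 1 for combo against WT, 0 to 6 for combo against AG221, 2 to 5 for combo against ruxolitinib and 0 to 4 for the departure. Ruxolitinib against vehicle gave 0 throughout. The log2 fold change of Klf1, vehicle against WT, ranged from -0.58 (without vehicle A4) to 1.23. For ruxolitinib against vehicle it ranged from -0.19 to 2.25 for Hba-a1, -0.20 to 2.40 for Hbb-bs, -0.49 to 1.65 for Hbb-bt and -0.80 to 1.56 for Alas2, the lowest each without Rux A16. Over all tested genes, calls ranged over the alternatives other than leaving out a library from 3406 to 7845 for vehicle against WT (5937 in the reported fit), 0 to 2247 for AG221 against vehicle (176), 0 to 50 for ruxolitinib against vehicle (3), 274 to 1800 for combo against WT (579), 3788 to 7030 for combo against AG221 (5917) and 167 to 3671 for the departure (1502). Leaving out a library gave 1901 to 7961, 0 to 4672, 0 to 9, 88 to 1306, 3002 to 8140 and 44 to 6087 in the same order, 1006 to 2995 for combo against vehicle (2226), 1910 to 7277 for ruxolitinib against WT (5759) and 1137 to 2878 for combo against ruxolitinib (2217).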
